A study of Homo sapiens with 19 samples.

Results

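The AKAP8 knockdown in mesenchymal cells was taken as the set of 5 RNA-seq libraries from cells in the mesenchymal state (MES), 3 controls and 2 with AKAP8 knocked down, out of 19 samples in the series. The cells were HMLE/Twist-ER, a line of immortalized human mammary epithelial cells carrying the transcription factor Twist fused to an estrogen receptor. All 5 cultures received 20 nM tamoxifen until their morphology was mesenchymal, and all carried an shRNA introduced with a lentivirus, directed at AKAP8 in the knockdown. The labels do not tell which of the study's AKAP8 shRNAs was used, so sequence-dependent effects of 1 hairpin and loss of AKAP8 cannot be told apart here. The 6 libraries of the epithelial state (EPI, no tamoxifen), 3 control and 3 AKAP8 knockdown, served as a second measurement of the same events and genes. They had no part in the MES test of events. The gene test fitted all 11 libraries together, so there the EPI libraries entered the scaling, the filter and the spread. The series also holds eCLIP, which maps AKAP8-bound RNA, with 4 samples per state. The tables for the MES knockdown list 2 controls and the remaining one was taken from the tables that compare the EPI and MES controls. The libraries are called by their place in these lists, because the lists carry no replicate number. The study's methods call them biological replicates. The p-values of MES events rest on the spread between the 5 MES libraries, moderated with that of other events. Those of gene levels rest on the spread within groups over all 11 libraries.

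AKAP8 is a nuclear protein that binds RNA as well as protein kinase A, and it is one of the factors that affect the choice of exons during the epithelial-mesenchymal transition (EMT). In alternative splicing an exon is either kept in the mRNA or skipped along with its flanking introns. Many exons that switch in EMT are short, keep the reading frame, and lie in genes of the actin cytoskeleton, of cell junctions and of membrane traffic. Inclusion is given as PSI, the percentage of an event's junction reads, scaled by the lengths of its forms, that include the exon. PSI compares only the forms of that event and not all transcripts of the gene. A change is given as ∆PSI, knockdown minus control in percentage points. The 5 types of event measured were skipped exons (SE), alternative 3' and 5' splice sites (A3SS and A5SS), mutually exclusive exons (MXE) and retained introns (RI).

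AKAP8 itself was lower in the knockdown. Its level, the junction reads of its 2 SE events scaled for library depth, was 382, 196 and 248 in the first, the second and the third listed control and 108 and 122 in the knockdown libraries. The groups did not overlap, and the knockdown retained 41.8% of the control mean. On the log2 scale the change was -1.20 (SE 0.28, adjusted p = 0.0314 in the limma fit of all 11 libraries). An exact permutation test over the 5 libraries gave p = 0.2 (two-sided), where 0.1 is the smallest value that 10 arrangements allow. The change lost significance without the first or the third listed control or without either knockdown library, with log2 values between -1.28 and -0.93. In EPI, AKAP8 retained 43.1% of its control mean, from 266 to 115 scaled reads.

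The libraries held 22491681 to 28261544 SE junction reads each in MES, a number that counts a read more than once where it supports several events. Of the epithelial markers, CDH1, OCLN, JUP, ESRP1 and ESRP2 had a value, and together they summed to 547 to 896 scaled reads in the MES controls and 451 to 660 in the MES knockdown, against 7352 to 8773 in the EPI controls. Of the mesenchymal markers, 8 of 10 had a value (VIM, FN1, ZEB1, ZEB2, SPARC, COL1A1, COL6A1 and POSTN), and CDH2 and TWIST1 had none. They summed to 2919328 to 5310538 in the MES controls and 4666142 to 6083367 in the knockdown. Both sums overlapped between control and knockdown, and the MES label stood apart from EPI on each. FN1 made up most of the mesenchymal sum, and single markers went different ways. ZEB2, a repressor of epithelial genes, was at 329.3, 165.2 and 207.6 scaled reads in the controls and 114 and 105.9 in the knockdown, and ESRP1, an epithelial splicing factor, at 117.6, 242.8 and 282.5 against 93 and 114.9. SPARC, a matrix protein, was at 11037, 12880 and 7221 against 18699 and 16834, and VIM, the intermediate filament vimentin, at 110675, 104831 and 103936 against 149834 and 132424. The groups did not overlap in these 4 genes or in ZEB1 (74.5, 58.1 and 69.6 against 30.7 and 57). In the remaining measured markers they overlapped. With 3 and 2 libraries, groups can also lie apart by the draw of libraries, and none of these genes passed the test. The share of all tested genes whose groups lie apart was not counted, so this is a description without a background. No marker of other lineages, such as PTPRC or PECAM1, had a value.

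Knockdown changed 19 of 37302 SE events in MES, in 17 genes, at a false discovery rate under 0.05 and a ∆PSI of at least 10 points. This is 0.0509% of the events tested. Exons were skipped more often in 14 events (0.0375%) and included more often in 5 (0.0134%). The control and knockdown values did not overlap for any of the 19 events. The limits favour events whose groups lie apart, so this adds no separate support. The strongest skipping was in EHBP1, ADGRG6 and ATP5C1, at 31.4 to 33.0 points, and the strongest inclusion was in COL6A3, at 28.9 points. Before adjustment, 296 events with lower and 134 with higher inclusion by 10 points or more had a p under 0.05.

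The count rested on all libraries. It was 11, 8 and 21 without the first, the second or the third listed control, and 9 and 10 without the first or second listed knockdown library, where the remaining knockdown library was taken to vary like the other groups. The choice of test mattered as well, since limma on the logit of PSI passed 0 events (499 with an unadjusted p under 0.05 and 10 points), and a dispersion trend on all reads passed 50 and the dispersion of all 11 libraries 32, both including the 19. The exons of COL6A3, ATP5C1, FLNA and TPM2 passed in all 5 fits that left out a library. Just inside the limits was CD44 (adjusted p = 0.036). Just outside were exons of ATP13A3 (-11.99 points, adjusted p = 0.0503) and RAI14 (-24.1 points, adjusted p = 0.0574).

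**Figure D1:**
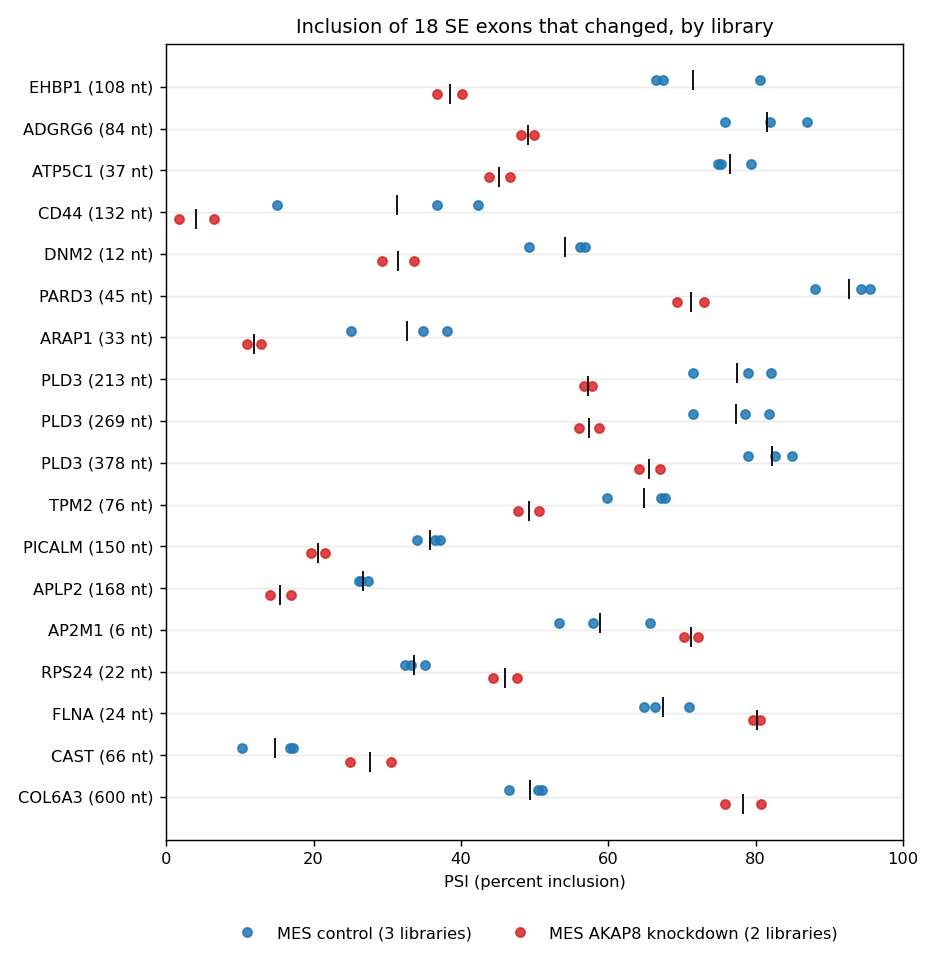
PSI in percent (horizontal axis) of 18 of the 19 changed SE exons, 1 row per exon with its length. Blue points are the 3 MES control libraries, red points the 2 MES knockdown libraries and black bars the group means. The red points lie left of the blue ones in 13 rows and right of them in 5, with no overlap.

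Of the 19 exons, 10 were shorter than 81 nt (23.3% of all tested SE exons were) and 15 had a length that is a multiple of 3, against 43.5% of all tested. The shortest were the 6-nt exon of AP2M1 and the 12-nt exon of DNM2. Of the short exons, 9 are shown because they carry most of the well-measured changes, each with 30 intron bases on either side, 5′ to 3′ on the gene's strand in GRCh37, the exon in capitals and the introns in lower case.
AP2M1: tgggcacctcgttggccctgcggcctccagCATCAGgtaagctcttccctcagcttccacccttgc
DNM2: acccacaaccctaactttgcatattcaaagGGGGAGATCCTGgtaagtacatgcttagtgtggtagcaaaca
RPS24: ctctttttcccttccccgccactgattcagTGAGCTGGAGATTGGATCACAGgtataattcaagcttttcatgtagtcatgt
FLNA: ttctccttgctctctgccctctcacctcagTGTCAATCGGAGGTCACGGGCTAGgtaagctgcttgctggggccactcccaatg
ARAP1: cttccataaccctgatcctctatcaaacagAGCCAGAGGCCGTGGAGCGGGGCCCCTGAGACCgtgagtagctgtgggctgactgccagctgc
ATP5C1: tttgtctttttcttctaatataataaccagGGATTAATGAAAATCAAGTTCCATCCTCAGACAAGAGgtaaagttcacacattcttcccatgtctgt
PARD3: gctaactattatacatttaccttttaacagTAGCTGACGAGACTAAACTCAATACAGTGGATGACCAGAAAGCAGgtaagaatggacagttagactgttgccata
CAST: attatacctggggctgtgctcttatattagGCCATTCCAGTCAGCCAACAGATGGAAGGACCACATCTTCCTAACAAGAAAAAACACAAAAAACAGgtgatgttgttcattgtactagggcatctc
TPM2: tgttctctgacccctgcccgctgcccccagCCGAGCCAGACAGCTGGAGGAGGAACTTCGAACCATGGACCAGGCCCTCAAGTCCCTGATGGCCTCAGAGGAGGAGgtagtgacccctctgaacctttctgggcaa

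These exons lie at chr3:183898433-183898438 (AP2M1), chr19:10919245-10919256 (DNM2), chr10:79799962-79799983 (RPS24), chrX:153585619-153585642 (FLNA), chr11:72403798-72403830 (ARAP1), chr10:7848937-7848973 (ATP5C1), chr10:34625127-34625171 (PARD3), chr5:96062498-96062563 (CAST) and chr9:35685061-35685136 (TPM2). FLNA, ARAP1, PARD3 and TPM2 are on the minus strand. Gencode v44, lifted to GRCh37, lists each of them as an exon of its gene, coding in at least 1 transcript except for the RPS24 exon, which is annotated as untranslated only.

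Actin-binding proteins were the first group. Of 27 actin cytoskeleton genes with a tested SE exon, 3 (11.1%) had a changed exon, against 0.19% of all 8940 genes. This list and those below were chosen with earlier results of these data known, so their shares are descriptions. The exons of FLNA and TPM2 moved in opposite directions. FLNA is a filamin that cross-links actin filaments. Its 24-nt exon had a PSI of 66.3, 64.8 and 71.0 in the controls and 80.7 and 79.6 in the knockdown, a gain of 12.8 points (adjusted p = 8.57e-07).

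TPM2, the beta tropomyosin that lies along actin filaments, has a 76-nt exon that was among the best measured, with 4082 junction reads per library on average. Its PSI was 67.1, 67.8 and 59.9 in the controls and 47.8 and 50.6 in the knockdown (∆PSI -15.7, adjusted p = 9.27e-08). The third listed control was the lowest of the controls and still lay above both knockdown libraries.

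Genes of junctions and polarity formed the next group, with 2 of 18 changed (PARD3 and CD44). PARD3 is a scaffold of the cell polarity complex. Its 45-nt exon had a PSI of 95.6, 94.3 and 88.1 in the controls and 73.0 and 69.4 after knockdown (∆PSI -21.5, adjusted p = 0.00179). CD44 is the hyaluronan receptor whose variable exons are skipped as cells become mesenchymal. A 132-nt variable exon at chr11:35227659-35227790, read by 45.4 junction reads per library on average, had PSI values of 36.7, 42.3 and 15 against 6.49 and 1.69 (∆PSI -27.3). It was supported by 29, 47 and 6 inclusion reads in the controls and 5 and 1 in the knockdown, the fewest of the 19 events.

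The CD44 event with the most reads, at chr11:35243201-35243279, was constitutive, with PSI above 99.8 in every library. The CD44 exon with the most reads of the rarer form, a 204-nt variable exon at chr11:35232793-35232996 chosen after its values were seen, was at 10.6, 13.6 and 12.2 in the controls and 7.12 and 8.76 in the knockdown. Its ∆PSI of -4.22 points had an adjusted p of 0.0503 and was under the 10-point limit. In the EPI controls the same exon was at 87.4 on average.

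CLSTN1, a transmembrane calsyntenin that takes part in vesicle transport, has a 57-nt exon at chr1:9797556-9797612. It did not pass the test in MES, where its PSI was 94.7, 94.2 and 94.5 in the controls and 96.1 and 94.8 in the knockdown (∆PSI 0.96, adjusted p = 0.849). In EPI the same exon went from 33.0 to 57.9 (adjusted p = 8.48e-11). The MES controls were close to full inclusion, which left little room for a rise. In the quasi-binomial test of the difference between states the exon did not pass (MES minus EPI -23.9 points, unadjusted p = 0.0254, adjusted p = 0.659). A 30-nt CLSTN1 exon at chr1:9816539-9816568 was at 43.95, 38.4 and 36.2 against 42.7 and 32.1 in MES (adjusted p = 0.885), and the CLSTN1 exon with the most reads was at 98.96 or above in all 5 libraries. The 57-nt and 30-nt exons were chosen after their values were seen.

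Genes of membrane traffic had 2 of 20 members changed on the list used (DNM2 and PICALM), against 0.19% of all genes. EHBP1, ARAP1 and AP2M1 are not on the list and are described beside it by their known roles, a placing made after their values were seen. DNM2 is the large GTPase that cuts endocytic vesicles from the membrane. Its 12-nt exon dropped from 56.9, 56.2 and 49.3% inclusion to 29.4 and 33.7% (∆PSI -22.6, adjusted p = 0.00239). PICALM assembles clathrin coats, and its 150-nt exon at chr11:85701293-85701442 was at 37.1, 36.4 and 34.1 against 19.7 and 21.5 (∆PSI -15.3, adjusted p = 0.0155).

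EHBP1, which links endocytic vesicles to actin, had the largest decrease. The 108-nt exon at chr2:63215066-63215173 was included at 67.4, 66.5 and 80.6% in the controls and at 40.2 and 36.8% in the knockdown (∆PSI -33.0, adjusted p = 0.00213). ARAP1, a GTPase-activating protein, showed 38.1, 34.8 and 25.03 against 12.9 and 10.9 for its 33-nt exon (∆PSI -20.7, adjusted p = 0.0214). AP2M1, the mu subunit of the clathrin adaptor AP2, gained inclusion of its 6-nt exon, from 53.3, 57.9 and 65.6 to 72.2 and 70.3 (∆PSI 12.4, adjusted p = 0.00328), and its highest control and lowest knockdown value were the closest together among the 5 exons that gained inclusion.

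The mitochondrial and secretory proteins followed. ATP5C1 is the gamma subunit of the mitochondrial ATP synthase, and its 37-nt exon close to the 3′ end had the smallest p-value of all SE events. It was included at 79.5, 75.0 and 75.4% in the controls and at 43.8 and 46.6% after knockdown (∆PSI -31.4, adjusted p = 4.07e-15). COL6A3, a chain of the extracellular matrix protein collagen VI, was the only changed exon on the matrix list of 26 genes with a tested exon. Its 600-nt exon at chr2:238287279-238287878 rose from 51.0, 46.6 and 50.4 to 75.8 and 80.7 (∆PSI 28.9, adjusted p = 2.62e-09).

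Membrane proteins made up most of the rest. ADGRG6, an adhesion G protein-coupled receptor, lost an 84-nt exon at chr6:142704897-142704980, from 86.9, 81.9 and 75.9 to 49.97 and 48.2 (∆PSI -32.5, adjusted p = 0.0067). APLP2, a relative of the amyloid precursor protein, had a 168-nt exon at chr11:129993507-129993674 with values of 26.5, 26.1 and 27.4 against 14.1 and 16.9 (∆PSI -11.2, adjusted p = 6.08e-05). In PLD3, a lysosomal member of the phospholipase D family, 3 of the 19 events were forms of 1 untranslated exon that end at the same position, chr19:40871837, and share reads. They had ∆PSI values of -16.6, -19.9 and -20.2 points, so they are not separate results.

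RPS24, a protein of the small ribosomal subunit, had the most reads of the 19 events, 6767 per library. Its 22-nt exon was at 33.3, 35.1 and 32.4 in the controls and 47.7 and 44.3 in the knockdown (∆PSI 12.4, adjusted p = 2.13e-06). CAST, the inhibitor of the calpain proteases, gained inclusion of a 66-nt exon, from 16.8, 17.2 and 10.3 to 30.5 and 24.9 (∆PSI 12.9, adjusted p = 0.0067). None of the 22 genes that had both a changed event of any type and a gene value passed the test for gene level. Over all genes 1.11% were higher and 1.18% lower, so none among 22 is near the background.

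With a changed exon in 0.19% of all genes, lists of this size give little to read in a count of 0. No changed SE exon was found among the lists of EMT markers (7 epithelial and 18 mesenchymal genes with a tested exon), EMT splicing regulators (11), AKAP8 and relatives (13), hnRNP proteins (18), SR proteins and their kinases (14), mitosis genes (22), p53 targets (12), interferon genes (7) or amino acid and lipid metabolism (17). Of 29 genes with exons known to switch in EMT, 2 had one, among them CD44.

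The other event types gave 7 changed events out of 12747 tested, all with lower inclusion. Of 2312 A3SS events 5 changed (0.216%), and of 1643 RI events 2 changed (0.122%). None of 1489 A5SS (0%) and none of 7303 MXE events (0%) passed, although 38 and 122 of them had an unadjusted p under 0.05 with a ∆PSI of at least 10 points, and the limma test on the logit of PSI called none of either type. The count of 7 ranged from 3 to 137 when single libraries were left out. The 137 came from the fit without the first listed knockdown library, in which 133 MXE events of 120 genes passed, and the 3 from the fit without the second listed one.

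PFN2, a profilin that binds actin monomers, had the firmest change. Use of the upstream of 2 acceptor sites, which adds chr3:149684052-149684373, was at 34.2, 32.3 and 39.0 in the controls and 18.8 and 18.9 in the knockdown (∆PSI -16.4, adjusted p = 7.09e-15). PXN, the focal adhesion protein paxillin, was the only one of the 7 whose groups overlapped, with 55.0, 81.1 and 73.4 against 58.3 and 39.6 (∆PSI -20.9, adjusted p = 0.0362). PFDN5, a subunit of the prefoldin chaperone, had values of 76.5, 90.3 and 68.9 against 42.4 and 43.1 from 82.8 reads per library, and C7orf43, a subunit of the TRAPPII tethering complex, had 19.8, 35.8 and 29.8 against 5.83 and 3.55 from 41.2 reads per library.

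The remaining 3 events lie in host genes of small nucleolar RNAs, which are cut from introns and guide the modification of ribosomal RNA. TAF1D, which also encodes a factor of RNA polymerase I, used the upstream acceptor of an untranslated exon at 34.7, 33.3 and 36.5 in the controls and 19.2 and 21.6 in the knockdown (∆PSI -14.5, adjusted p = 0.0269). In SNHG12, a non-coding host gene, the intron at chr1:28906100-28906423 was retained at 60.9, 68.1 and 70.1 against 27.0 and 40.4 (∆PSI -32.7, adjusted p = 0.00668). In LRRC75A-AS1, another one, the intron at chr17:16342729-16342894 was retained at 40.5, 42.6 and 49.7 against 27.1 and 29.4 (∆PSI -16.1, adjusted p = 0.0038). This grouping was seen after the values were known and was not tested.

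**Figure D2:**
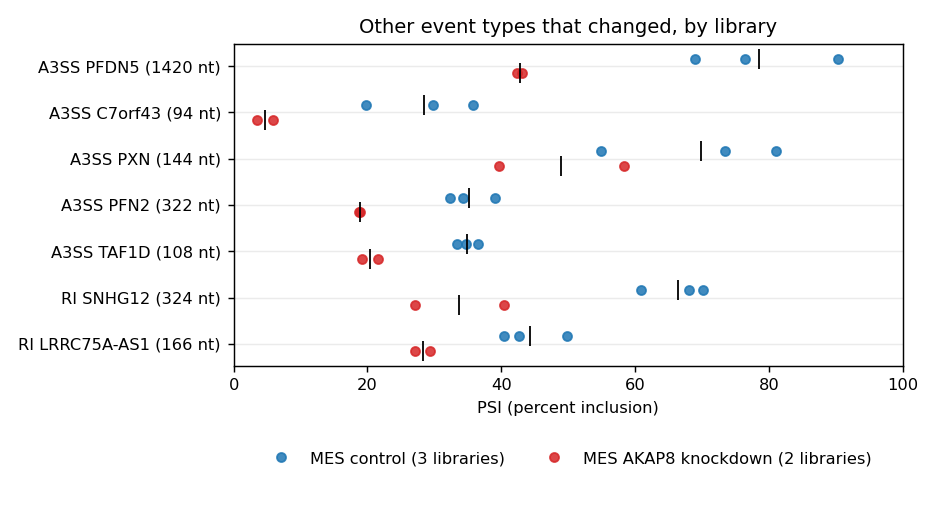
PSI in percent (horizontal axis) of the 7 changed A3SS and RI events, 1 row per event with the length of its variable segment. Blue points are the 3 MES controls, red points the 2 MES knockdown libraries and black bars the means. All 7 means are lower after knockdown, and only in PXN do the points of the groups overlap.

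The 19 SE events were then read in the EPI libraries, which had no part in choosing them. All 19 had the same direction of ∆PSI in EPI, whereas the direction was shared by 50.8% of the 29278 SE events tested in both states. In EPI 5 of the 19 passed the same thresholds (EHBP1, APLP2, ATP5C1, FLNA and TPM2), where 28 of 47579 SE events (0.0588%) passed in all. At an adjusted p under 0.05 without the 10-point limit there were 8, with PARD3, RPS24 and AP2M1. In 13 of the 19 the EPI control and knockdown libraries did not overlap. The share of such events among all tested SE events was not counted, so the 13 are a description without a background. The PLD3 forms, which share reads, are counted singly in these numbers, and the EPI groups overlapped in all of them. The median size of ∆PSI over the 19 was 19.9 points in MES and 8.14 points in EPI, and the MES value had been used to choose them.

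Several of these exons start from a different level in EPI. ATP5C1 went from 95.1 to 83.9 in EPI (adjusted p = 3.49e-10) and DNM2 from 94.5 to 87.1 (adjusted p = 0.201). TPM2 moved further in EPI than in MES, from 72.3 to 51.9 (adjusted p = 1.12e-12), and so did FLNA, from 54.3 to 68.2 (adjusted p = 1.68e-05), and APLP2, from 63.7 to 49.6 (adjusted p = 3.39e-06). The difference between the knockdown effects of the states, tested on the logit scale, was not past the threshold for any of the 19, and 2 of them had an unadjusted p under 0.05. A miss here does not show equal effects. RAI14, just outside the threshold in MES, went from 88.2 to 58.9 in EPI (adjusted p = 1.68e-05).

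**Figure D3:**
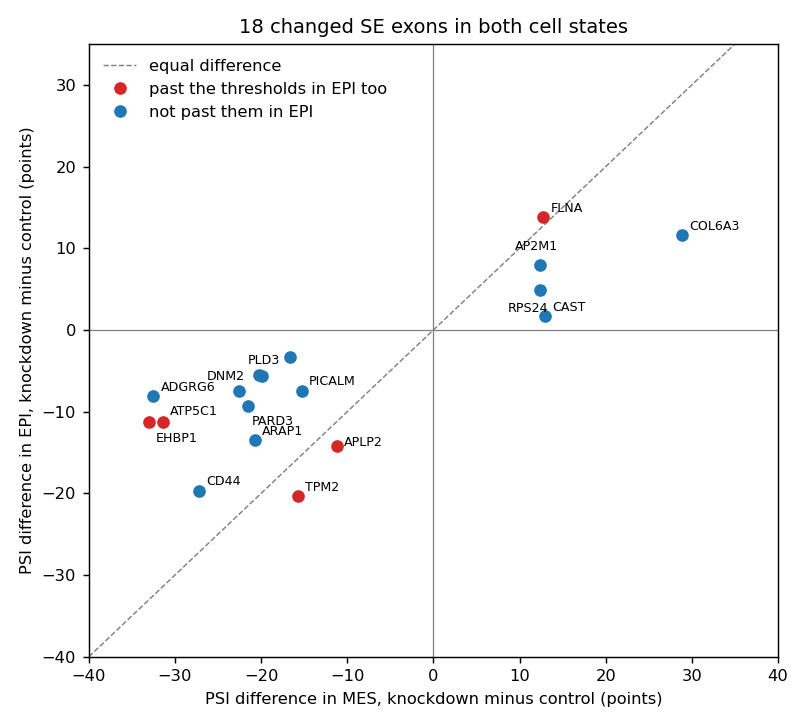
∆PSI in percentage points, knockdown minus control, of 18 of the 19 SE exons in MES (horizontal axis, the values that chose them) against EPI (vertical axis, other libraries). Red points passed the thresholds in EPI too, the dashed line marks equal differences, and all 18 points lie in the lower left or upper right.

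Among the other event types, PFN2 had an adjusted p of 9.3e-06 in EPI, with 31.1 in the controls and 22.4 after knockdown, but its ∆PSI of -8.68 stayed under the 10-point limit. No A3SS event passed both limits in EPI (0%). TAF1D was at 49.4 against 41.2 (adjusted p = 0.622), SNHG12 at 66.0 against 62.2 and LRRC75A-AS1 at 42.2 against 39.6 (adjusted p = 1 for both). C7orf43 had the opposite sign in EPI, 20.3 against 24.9 (adjusted p = 0.958).

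AKAP8 binding by eCLIP was compared with the position of the 19 exons. None of them had an AKAP8 peak from MES cells on its strand within 1000 nt, as deposited or at the study's cutoffs, while 2.43% of all tested SE exons had one. A count of 0 in 19 allows a share of up to 15.8%, so a share like that of all exons was not distinguishable. No peak from EPI cells lay within 1000 nt either, against 3.41% of all tested. At gene scale, 4 of the 17 genes (23.5%) held at least 1 MES peak between the outer ends of their tested SE events, against 10.5% of 8940 genes, and these 17 genes were longer, with a median span of 64298 nt against 19009 nt. The 4 were ARAP1, CAST, DNM2 and FLNA.

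Runs of G were common in the peaks. Of 26228 MES peaks at the study's cutoffs, 95.8% contained a run of at least 3 G, in peaks with a median length of 56 nt. The share in sequence of like length outside the peaks was not counted, so this is a description without a background. As examples, the DNM2 peak nearest to the 12-nt exon, 3809 nt downstream of it, and the FLNA peak with the smallest p-value are shown on the gene's strand in GRCh37, with runs of 3 or more G in capitals. Both lie in introns.
DNM2 peak, chr19:10923066-10923143, plus strand: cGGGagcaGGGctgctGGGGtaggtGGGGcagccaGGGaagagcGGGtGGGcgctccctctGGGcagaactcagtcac
FLNA peak, chrX:153597764-153597814, minus strand: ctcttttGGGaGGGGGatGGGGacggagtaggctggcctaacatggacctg

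Their log2 ratios of IP over input were 3.40 and 3.35. Around the 19 exons, G runs were not more frequent than elsewhere. A run of 3 or more G on the transcribed strand lay within 250 nt upstream of 12 of the 19 (63.2%, against 84.8% of all tested SE exons) and within 250 nt downstream of 14 (73.7%, against 86.4%). The median number of runs was 1 upstream and 2 downstream, against 2 and 3 over all tested exons.

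Motifs of other splicing factors were looked up in the same windows, on the transcribed strand only. TGCATG, the RBFOX motif, lay in the 250 nt upstream of 7 of the 19 exons (36.8%, in ARAP1, ATP5C1, CD44, PARD3, PLD3 and RPS24), against 6.89% of all tested exons, and in the 250 nt downstream of 1 (5.26%, against 7.38%). ACTAAC, the QKI motif, lay downstream of 4 (21.1%, in CAST, DNM2, PICALM and RPS24), against 2.69%, and upstream of 2 (10.5%, against 2.92%). GGTGGG, an ESRP-type motif that also holds a G run, lay downstream of 6 (31.6%, against 14.7%, in AP2M1, ARAP1, FLNA and the 3 PLD3 events), upstream of 2 (10.5%, against 13.0%) and in the exon of none (0%, against 3.84%). Inside the exons, TGCATG lay in 2 of the 19 (10.5%, against 3.23%) and ACTAAC in 2 (10.5%, against 1.09%). The PLD3 events share their downstream window and account for 2 of the 7 matches to TGCATG upstream. These are letter matches and not binding sites, and RBFOX2 and QKI gene levels did not pass the test, with log2 changes of 0.14 (adjusted p = 0.604) and 0.08 (adjusted p = 0.859).

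Gene levels were approximated from junction reads, and 206 of 9014 genes changed in MES at a log2 change over 1 in size and an adjusted p under 0.05. Of these, 100 were higher (1.11%) and 106 lower (1.18%) after knockdown, and the groups did not overlap for any of the 206. The limits favour genes whose groups lie apart, so this adds no separate support. In bulk RNA, less RNA per cell and fewer cells that express a gene cannot be told apart. Scaling by total junction reads moved the median log2 change of all genes from -0.01 to -0.14 and the split to 57 higher and 139 lower, so directions are given relative to the median gene. The count was 125, 100 and 168 without the first, the second or the third listed control, and 50 and 81 without the first or second listed knockdown library. In every one of these 5 fits 23 genes passed, 12 higher and 11 lower.

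Among the 12 genes with the largest rise, 3 transport or make amino acids. ASNS, the synthetase that makes asparagine, had 3171, 3156 and 3762 scaled reads in the controls and 14321 and 10697 in the knockdown (log2 change 1.88, SE 0.19, adjusted p = 0.00108). SLC6A9, a glycine transporter, was at 39.2, 73.4 and 51.6 against 215 and 296 (log2 change 2.23), and SLC1A4, a neutral amino acid transporter, at 87.2, 119 and 159 against 424 and 390 (log2 change 1.77). The groups lay far apart in all 3.

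The list of amino acid and lipid metabolism had 3 of 16 measured members higher (ASNS, PSAT1 and SLC7A5), 1 lower (GLS2) and 12 not past the test, with a median log2 change of 0.24. PSAT1, an enzyme of serine synthesis, went from 8629, 7881 and 6788 to 16579 and 16145 (log2 change 1.08, SE 0.15, adjusted p = 0.00255). SLC7A5, a transporter of large neutral amino acids, went from 1573, 1258 and 983 to 2981 and 4988 (log2 change 1.63, SE 0.27, adjusted p = 0.00708). GLS2, a glutaminase, was lowly expressed and fell from 60.8, 35.7 and 27.4 to 12.5 and 2.0 (log2 change -2.66, SE 0.55, adjusted p = 0.0202). The GLS2 change was -1.57 without the second listed knockdown library, where its value was lowest, and -3.74 without the first listed one. GLS2 did not pass without the first or the second listed control or without the second listed knockdown library, and 2 rather than 3 members were higher without the third listed control or the second listed knockdown library.

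A wider list of genes known as targets of ATF4, the transcription factor that cells use when amino acids are short or protein folding fails, was drawn up after these values were seen, so its count is a description. Of its 31 measured members, 13 were higher, none was lower, and 18 did not pass both limits. At an adjusted p under 0.05 alone 20 passed, all of them higher, against 4.13% of all 9014 genes in either direction. The median log2 change was 0.99, and 30 of 31 fitted values were above 0, the exception being TARS at -0.12. The 13 were FAM129A, SLC6A9, ASNS, SLC1A4, CTH, ULK1, SLC7A5, SESN2, GPT2, SLC1A5, PSAT1, GARS and MTHFD2.

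FAM129A, a stress-induced regulator of translation, had 62.7, 54.1 and 49.5 scaled reads in the controls and 307 and 287 in the knockdown (log2 change 2.40, SE 0.28, adjusted p = 0.00114). CTH, which makes cysteine, was at 257, 358 and 327 against 981 and 1072 (log2 change 1.72, adjusted p = 0.00114). SESN2, an inhibitor of mTORC1 that the list of p53 targets also holds, was at 329, 364 and 204 against 756 and 880 (log2 change 1.49, adjusted p = 0.0109). ATF4 itself was at 3682, 3517 and 2785 against 6385 and 6699 (log2 change 0.99, adjusted p = 0.00708), just under the fold limit. In these 4 genes, too, both knockdown libraries lay above all controls.

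The number of higher members was 12, 13 and 10 without the first, the second or the third listed control, 6 and 9 without the first or second listed knockdown library, and 9 under total-read scaling, with medians of 0.86 to 1.05 over these settings. In EPI no member passed both limits, and the median was 0.45. Of 12 genes for folding in the endoplasmic reticulum, listed after the values were seen, HERPUD1 was higher, at 898, 1368 and 1131 against 3419 and 3660 (log2 change 1.66, adjusted p = 0.00471). It did not pass without the first listed knockdown library. HSPA5, the main chaperone there, had a log2 change of 0.57 (adjusted p = 0.0913).

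**Figure D4:**
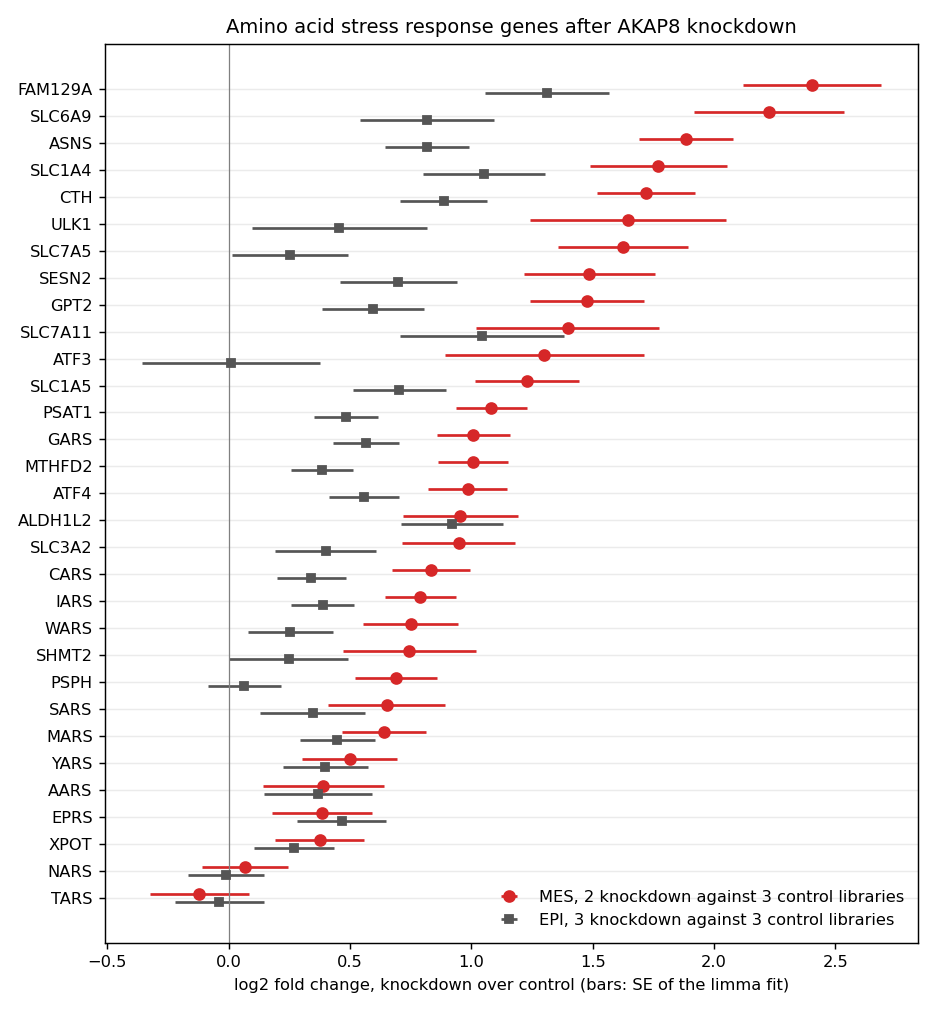
Log2 change of gene level, knockdown over control, for the 31 measured genes of the ATF4 list (rows), in MES (red points) and EPI (grey squares), with the SE of the limma fit as bars. In MES 30 of the 31 points lie above 0, and the EPI median of 0.45 compares with 0.99 in MES.

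The other genes with the largest rise were of mixed function. TSPAN18, a tetraspanin, had 27.4, 18.4 and 15.8 scaled reads in the controls and 117 and 112 in the knockdown (log2 change 2.46, SE 0.31, adjusted p = 0.00141). MED19, a subunit of the Mediator complex, was at 62.7, 81.6 and 137 against 375 and 483 (log2 change 2.25), and KLHDC3, a kelch-domain protein, at 1388, 1415 and 1394 against 5699 and 4677 (log2 change 1.88). PODXL, a sialomucin of the cell surface, was at 75.5, 59.2 and 37.9 against 164 and 241 (log2 change 1.82), with GLIS2, ZSWIM4, SLC22A17 and HSD17B10 between 1.76 and 1.85.

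Among the 12 genes with the largest fall was an enzyme of mitochondrial energy metabolism. GPD2, the mitochondrial glycerol phosphate dehydrogenase, was at 861, 762 and 840 against 172 and 246 (log2 change -1.99, SE 0.25, adjusted p = 0.00148). A list of 24 genes, of fatty acid and ketone oxidation and GPD2 itself, was drawn up after seeing this. Of these, 19 were measured. The 4 that were lower include ACADM, ACSF2 and GPD2, which had prompted the list. HSD17B10 was higher, and 14 did not pass. ACADM, the medium-chain acyl-CoA dehydrogenase, went from 1932, 1661 and 2009 to 421 and 604 (log2 change -1.88). The median of the list was -0.15, and 6 of 19 fitted values were above 0. Without the first listed knockdown library HSD17B10 no longer passed and 3 members were lower, and without the second listed one 3 were lower and the median was 0.02.

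MYLK, the myosin light chain kinase that starts smooth muscle and stress fibre contraction, was at 1214, 1213 and 781 against 214 and 261 (log2 change -2.15, SE 0.23, adjusted p = 0.00108). CLCA2, a p53-inducible protein of epithelia, was at 121, 172 and 95.9 against 25.9 and 32.0 (log2 change -2.09), and PPL, the desmosome protein periplakin, at 127, 68.3 and 58.0 against 25.9 and 13.0 (log2 change -2.06). PAQR5, a membrane progesterone receptor, had the lowest log2 change of the 12, -2.29, from 285, 345 and 624 to 53.7 and 118. The groups did not overlap in any of these 4 genes, though the controls of PAQR5 were spread widely.

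The readthrough transcript ARHGAP19-SLIT1 fell by 2.10 on the log2 scale, and since it shares exons with its neighbouring genes its reads cannot be assigned to it alone. PLD1, a phospholipase D, was at 62.7, 65.3 and 53.8 against 13.4 and 17.0 (log2 change -1.93). TREM2, VWDE, LACC1 and ROS1 had log2 changes between -2.03 and -1.97.

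**Figure D5:**
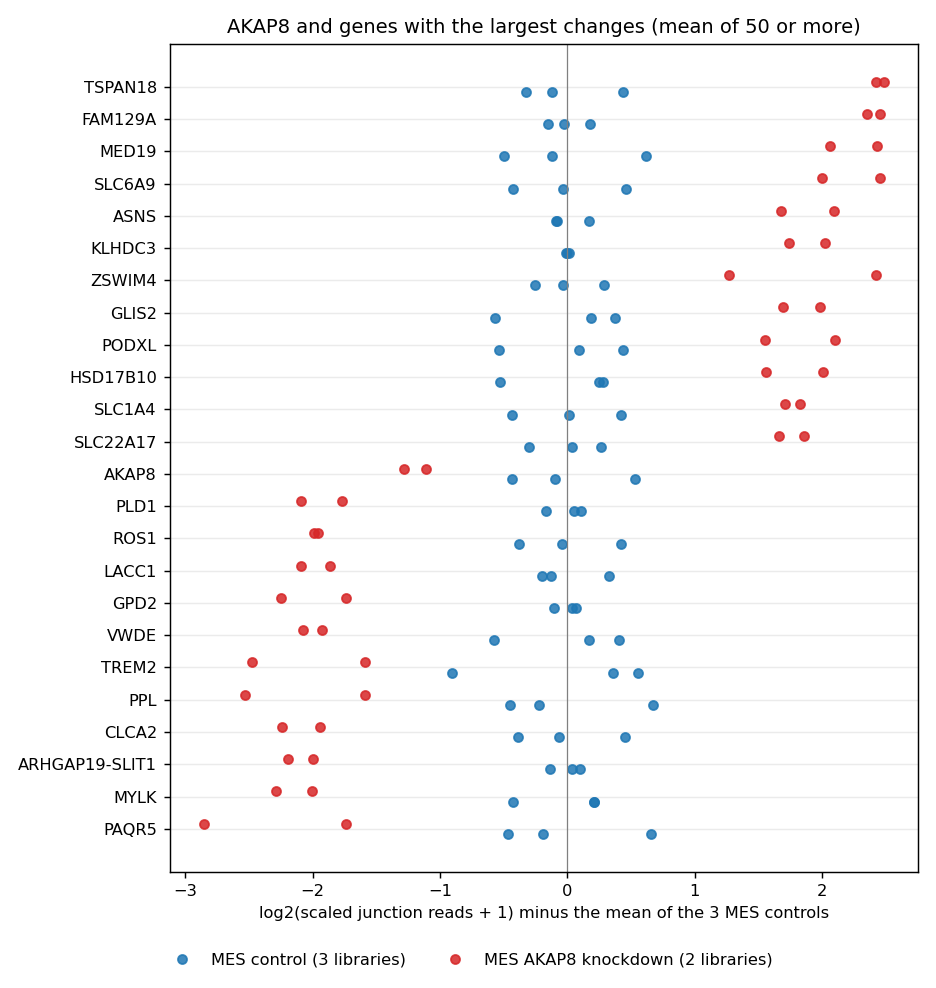
Gene level in each MES library as log2(scaled junction reads + 1) minus the mean of the 3 controls (horizontal axis), for AKAP8 and the 12 highest and 11 of the 12 lowest changed genes with a mean of at least 50 (rows). Blue points are controls and red points knockdown libraries, and the colours do not overlap in any row.

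Most of the lists held no changed gene, where 1.11% of all genes were higher and 1.18% lower, so a count of 0 is near the background. Of the epithelial markers, 0 of 8 measured passed and all 8 fitted values were below 0 (median -0.53), with CDH1 at -0.41 (adjusted p = 0.521) and OCLN at -0.67 (adjusted p = 0.361). Of the mesenchymal markers, 0 of 14 passed (median 0.42), with 10 fitted values above 0 and a range of -1.02 (ZEB2, adjusted p = 0.421) to 1.44. VIM was at 0.40 (adjusted p = 0.348) and FN1 at 0.44 (adjusted p = 0.507). EMT splicing regulators had 0 of 13 (ESRP1 -0.95, adjusted p = 0.0823, and ESRP2 -0.22, adjusted p = 0.594), hnRNP proteins 0 of 17 (HNRNPA1 -0.26, HNRNPA2B1 -0.45), and SR proteins and their kinases 0 of 14 (SRSF2 -0.09, SRSF4 0.06). AKAP8L, the closest relative of AKAP8, was at 0.39 (adjusted p = 0.294), and of 12 relatives only AKAP8 passed both limits.

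ADD3, an adducin that caps actin filaments, was the only one of 27 actin genes that passed, at 1476, 1429 and 1510 against 689 and 702 (log2 change -1.08, adjusted p = 0.0225). It did not pass when any single library was left out, with log2 changes of -1.10 to -1.06. It is also the only one of 30 on the list of genes with EMT-switching exons. Adhesion and polarity had 0 of 18 (CTNND1 -0.45, CTNNA1 0.16), membrane traffic 0 of 20 (EXOC7 0.12, EXOC1 -0.54), mitosis 0 of 22 (NCAPD2 0.06, NCAPD3 -0.02), interferon genes 0 of 6 (MX1 -0.34) and matrix genes 0 of 21 (COL1A1 0.79, COL4A1 0.81, with a median of -0.02 and 10 of 21 fitted values above 0). The list of p53 targets had SESN2 higher and GLS2 lower among 13.

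In EPI, 17 of 9014 genes passed (0.189%). The EPI libraries were part of the fit that chose the 206 MES genes, through scaling, filter and spread, so the 2 gene results are not fully separate. Of the 206 genes changed in MES, 13 passed there, all in the same direction, and 189 (91.7%) had the same direction, against 65.4% of all genes tested. Among the 13 were MYLK, ARHGAP19-SLIT1, AREL1, MAPK6, RANBP3, SH3D19 and SRGN, which were lower, and HSD17B10, ANKRD52, B4GALT4, CRYAB and SLC17A5, which were higher. AREL1, a ubiquitin ligase, went from 1678, 1902 and 1443 to 396 and 542 in MES (log2 change -1.84) and from a mean of 1519 to 373 in EPI (log2 change -2.03, adjusted p = 0.00103). MAPK6, an atypical MAP kinase, fell by 1.89 in MES and by 1.36 in EPI on the log2 scale. CRYAB, a small heat shock protein, was at 212, 292 and 306 against 800 and 1012 in MES and rose from a mean of 416 to 2232 in EPI.

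Differences between the states were rare under the test of the difference itself. Of 30197 SE events, 3 passed (0.00993%), in PCBP4, SNHG8 and ZFAS1, and 443 had an unadjusted p under 0.05 with a difference of at least 10 points. Without the third listed control 1 passed, and without the first or second listed knockdown library 7 and 0 passed. Of 9014 genes, 1 passed (0.0111%), ZFAS1, a non-coding host gene of small nucleolar RNAs. It had 3173, 2992 and 3061 scaled reads in the MES controls and 7856 and 7511 in the MES knockdown (log2 change 1.32, SE 0.16, adjusted p = 0.00114), while in EPI it went from a mean of 3469 to 2722 (log2 change -0.36, adjusted p = 0.421). TSPAN18, which rose in MES, had a log2 change of -0.25 in EPI, and the adjusted p of that difference was 0.082.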

How the data were processed

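Poly(A) RNA of HMLE/Twist-ER cells was sequenced in 11 libraries. The authors aligned reads to GRCh37 with STAR and ran rMATS. The deposited tables list, for each event, inclusion and skipping counts of all libraries of a group in 1 field, with the lengths of both forms. The authors' p-values, FDR and ∆PSI, the 30 columns of per-sample PSI and the DESeq2 gene table (log2 fold changes, with symbols as whole numbers) were not used. The eCLIP lists, made by the authors from merged replicates, give for each peak a log2 ratio of IP to input and an adjusted p as −log10.

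PSI was recomputed from counts and lengths. Events found in both the MES knockdown and the EPI-MES control tables, and averaging 20 or more reads a library, entered a quasi-binomial F test. Its dispersion was moderated with limma 3.58.1 (robust trend on reads of the rarer form). It replaced a count model because counts stand in joined fields. Adjusted p-values of events come from this test (Benjamini-Hochberg within each type). Gene levels were summed reads of a gene's SE events found in all comparisons, divided by median-of-ratios size factors. They were tested as log2(value + 1) with limma (trend, robust) over all 11 libraries, for genes with a value of 10 in 2 libraries. These levels exist only for genes with an SE event and also move with splicing. Both tests were tried on simulated data, and the difference between states was an interaction term.

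Named were all changed events, the 12 highest and 12 lowest changed genes with groups apart and a mean of at least 50, changed list members or the first 2 measured, and the CD44 and CLSTN1 events with the most reads. Members and lists were chosen with earlier results of these data known. A few items that met these rules are not reported here. Peaks and motifs were placed in GRCh37, with Gencode v44 lifted to it.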

Additional observations from a re-analysis of the deposited data

Results flagged for a closer look

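These results showed a knockdown effect in MES that differed from that in EPI by a test of the difference itself. An exon of PCBP4, a poly(C)-binding protein, at chr3:51995957-51996104 differed by -55.2 points (MES minus EPI). Its PSI was 33.3, 67.8 and 73.0 in the MES controls and 40.6 and 12.5 in the MES knockdown, with overlapping groups and 85.2 reads per library, and 18.2 against 41.9 on average in EPI. The exon of SNHG8 at chr4:119200099-119200292 differed by 25.1 points, with 32.4, 32.0 and 37.4 against 32.6 and 39.3 in MES and 69.8 against 46.7 in EPI. The exon of ZFAS1 at chr20:47897022-47897107 differed by 10.6 points, with 89.6, 86.1 and 88.2 against 92.4 and 93.2 in MES and 89.9 against 84.2 in EPI. The gene level of ZFAS1 differed by 1.68 on the log2 scale (adjusted p = 0.0199 in the limma fit). With a dispersion trend on all reads the PCBP4 and SNHG8 exons no longer passed. With single libraries left out, the PCBP4 exon passed without the first listed control or the first listed knockdown library, the SNHG8 exon in all fits but that without the second listed knockdown library, and the ZFAS1 exon only in that without the first listed control. SNHG8 and ZFAS1 are host genes of small nucleolar RNAs.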

How the results depend on the processing

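No paired analysis was possible because the lists of reads carry no replicate number. The 19 SE events became 50 with a dispersion trend on all reads, 32 with the dispersion of all 11 libraries and 0 with limma on the logit of PSI, which had 1889 events at an unadjusted p under 0.05. All 19 were among the 50 and the 32. Leaving out single libraries gave 8 to 21. The 7 other events became 11 with the 2 controls of the MES tables and all their events, 4 without the robust step, 12 at 5 ∆PSI points and 0 with limma on the logit of PSI, and 3 to 137 with single libraries left out. The 206 genes became 372 without a fold limit and 50 to 168 with single libraries left out. The AKAP8 change ranged from -1.41 to -0.93 and lost significance in 4 of these 5 fits. The 3 events that differed between states became 0 to 7. Under the trend on all reads, an alternative chosen after seeing the data, 6 rather than 5 of the 19 passed in EPI. The share of the 19 with a peak was 0% under each peak setting. No named result turned its direction. Among values for single named events and genes under each alternative, 239 for events changed in MES, 8 for exons that differed between states and 346 for genes stayed on their side of the threshold, and 109, 10 and 60 lost their call. With 2 knockdown libraries, a change that missed the threshold is not shown to be absent. Of the SE events, 29 had an adjusted p under 0.05 at any size of ∆PSI.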
